A study of Saccharomyces cerevisiae with 40 samples.

Results

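S288c and RM11 cells were compared after Cr41 treatment in minimal media (YM), in 10 of the 40 RNA-seq libraries of the series. The 10 are all the libraries that the labels place in YM with Cr41: 5 replicates of S288c, which the labels call GSY147, and 5 of RM11, all from lane 2 of the sequencer. S288c is the laboratory strain behind the yeast reference genome and the study's Cr41-sensitive strain, and RM11 descends from a vineyard isolate and is its resistant strain. Both strains had grown to mid-log phase in YM before Cr41 was added for 90 min. Credit41 (Cr41) is a commercial herbicide formulation of glyphosate, and the labels give its dose as 0.25% Cr41 in one field and as 0.25% glyphosate in Cr41 in another. The groups set beside these are the same strains untreated in YM, and the same strains with Cr41 in WYF, which is YM with tryptophan, tyrosine and phenylalanine added. The labels give no genotype beyond the strain name, and each strain is 1 genetic background, so a difference between them is between these strains only.

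Glyphosate blocks a step of the shikimate pathway, which in yeast is carried out by the Aro1 protein and leads to tryptophan, tyrosine and phenylalanine. When amino acids run short, yeast raises the transcription factor Gcn4, which switches on synthesis genes of many amino acids at once. Entry into the cell cycle is driven by another set of genes, for G1 cyclins and DNA replication, whose promoters carry MCB and SCB elements read by the factors MBF and SBF. Phospholipid synthesis genes such as INO1 are switched on by Ino2 and Ino4 and held back by Opi1, according to the supply of inositol and choline.

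The total of estimated counts per library ranged from 5524450 to 7026370 in S288c and from 4534293 to 7414664 in RM11, with medians of 5759561 and 5840112. Levels are given in CPM, the counts of a library scaled to a common total after TMM scaling, and ± stands for the SD over 5 libraries after a mean and for the SE after a log2 fold change, which is always S288c over RM11. The first principal component held 88.5% of the variance among the 10 libraries and separated the strains, and the second, with 4.40%, set replicates 1 to 3 of S288c apart from 4 and 5. The labels of both strains were checked with genes of known strain or mating type. MATa genes were read in both: STE2, the alpha-factor receptor, averaged 513 ± 51.5 CPM in S288c and 428 ± 65.5 CPM in RM11, whereas MF(ALPHA)1, the alpha-factor gene that MATa cells keep silent, averaged 0.368 CPM in S288c and 0.804 CPM in RM11. ENA2 and ASP3-1, which S288c carries, were read in every S288c library and gave 0 and 3 counts over the 5 RM11 libraries. The RM11 reads had been counted on S288c transcripts, so that for RM11 a low count and a transcript of diverged or missing sequence cannot be told apart.

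RM11 replicate 5 stood apart from the other 4 treated RM11 libraries. In 1172 of 5660 genes tested, or 20.7%, its CPM was separated from the other 4 by a gap of more than 0.71 of the group's range, against 0.318% to 0.548% of genes for each of the others and 0.336% to 1.70% for each S288c library. Counts of genes called, most list counts, summed shares and the log2 fold changes of 81 genes were therefore also computed without it. List medians, motif shares and the interactions of single genes were not. Without it, 1562 genes were called in place of 1477, of which 1410 were shared. For the 81 genes the log2 fold change moved by between -0.21 (HO) and 0.22 (THI4), and no call among them was lost. Ribosomal protein genes called lower went from 7 to 11 and trehalose and glycogen genes called lower from 5 to 7. Glycolysis genes called higher went from 7 to 5. These were the largest moves among the list counts.

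With Cr41 in YM, 1477 of the 5660 genes tested differed between the strains, which is 26.1% (edgeR quasi-likelihood test, Benjamini-Hochberg adjusted p under 0.05 and at least a 2-fold difference). Of these, 750 (13.3%) were higher in S288c and 727 (12.8%) were lower. This balance depended on the setting, with 634 higher and 792 lower by limma on log2(TPM + 1), and 1170 higher and 787 lower among all genes with any count. In all, 3086 genes (54.5%) had libraries of the strains that did not overlap in CPM. Untreated in YM, the same strains differed in 847 of 5608 genes (15.1%), with 377 higher in S288c (6.72%) and 470 lower (8.38%). The median log2 fold change over all genes tested, S288c over RM11, was -0.0041 with Cr41 and -0.0015 untreated. The common biological coefficient of variation was 15.2% with Cr41 and 9.18% untreated.

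Whether Cr41 altered the strain difference was tested as an interaction over the 20 YM libraries. The difference moved in 1112 of 5795 genes (19.2%), upward in S288c in 636 (11%) and downward in 476 (8.21%). The balance of these depended on the scaling: 57.2% were upward here, against 41.1% with limma on log2(TPM + 1), in which the median over all genes was -0.17. Of the 750 genes higher in S288c with Cr41, 682 were also tested untreated, where 256 were called higher, 21 lower and 405 neither. Of the 727 lower genes, 724 were tested untreated, where 247 were called lower, 3 higher and 474 neither. These comparisons share no libraries, except that the interaction holds both.

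**Figure D1:**
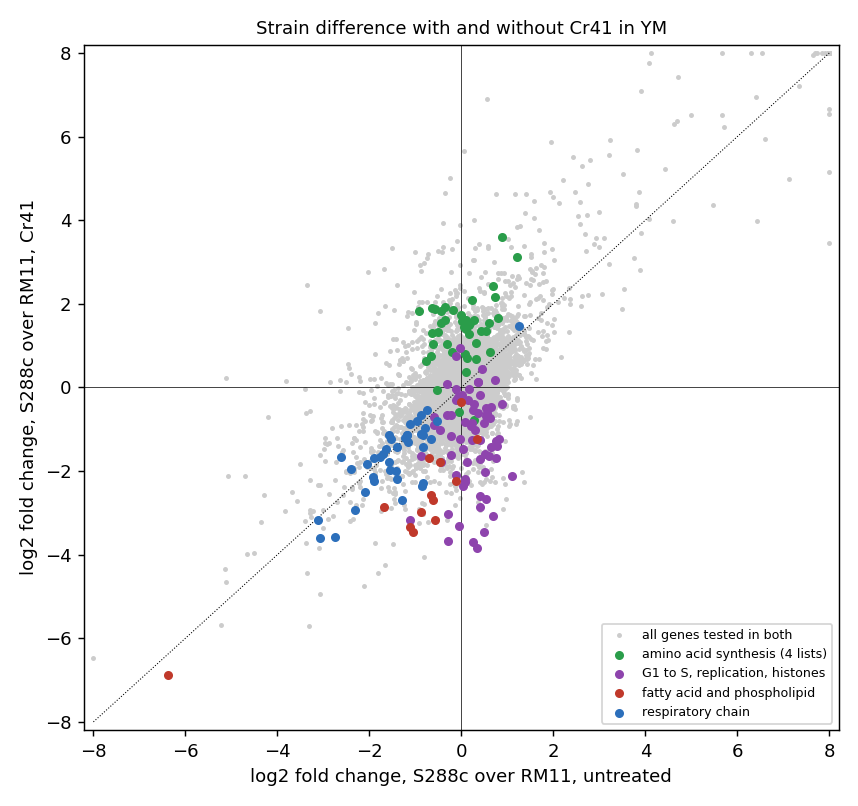
Each point is 1 of 5577 genes tested in both comparisons, with its log2 fold change (S288c over RM11) untreated in YM on the x axis and with Cr41 in YM on the y axis, and colours for 4 amino acid synthesis lists (arginine, histidine, aromatic, branched-chain), the cell cycle lists, the phospholipid list and the respiratory list. Points far from the diagonal include genes high in S288c only with Cr41 such as BAP2 (y = 5.65) and genes low only with Cr41 such as RNR1 (y = -3.46), whereas INO1 (y = -6.87) lies near the diagonal; 71 genes past 8 log2 units either way on an axis are drawn at 8 units.

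Genes for amino acid synthesis were higher in S288c. In the arginine list 9 of 10 genes were called higher and none lower, with a median log2 fold change of 1.86. In the histidine list it was 6 of 7 (median 1.504), in the aromatic list 8 of 13 (median 1.35), in the branched-chain list 8 of 12 (median 1.19) and in the lysine list 3 of 9 (median 0.64), none lower, beside 13.3% of all genes higher. Untreated, the medians of the same 5 lists were -0.35, 0.16, 0.06, 0.20 and 0.16, and 1 arginine gene was called higher there. The interaction was called upward in 10 of 10 arginine, 5 of 7 histidine, 8 of 13 aromatic, 6 of 12 branched-chain and 3 of 9 lysine genes. It was upward in 11% of all genes.

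The 6-letter core TGACTC, which Gcn4 binds, was looked for on both strands of the 500 bases before each start codon, in the S288c reference (RefSeq R64). It was found in all 10 arginine genes, in 6 of 7 histidine, 9 of 12 branched-chain, 6 of 13 aromatic and 4 of 9 lysine genes, beside 13.1% of the 5475 promoters of genes tested. Among the genes higher in S288c 23.8% held it, and among the lower genes 10.3%. ARO3, whose values follow, did not hold it. The stretches around the core are shown for 5 of the genes whose values follow, written 5′ to 3′ on the gene's strand with the core in capitals.
ARG7, chrXIII:396514-396543, - strand: ggacaggtaggaTGACTCactgcgtaattc
HIS5, chrIX:142714-142743, + strand: tcttggatctgtTGACTCacttcaattgat
HIS3, chrXV:721812-721841, + strand: ccacctagcggaTGACTCtttttttttctt
LEU4, chrXIV:426838-426867, - strand: cttacgtgtaagTGACTCagttctttcaaa
ASN1, chrXVI:822381-822410, + strand: tcatgtaacattTGACTCattctgtaaact

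These are reference sequences of S288c. RM11's own promoters were not analysed here, and a match says only that the letters are present.

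ARG7 (YMR062C) encodes the mitochondrial enzyme that makes ornithine on the way to arginine. Its level with Cr41 was 1536, 1581, 1625, 1877 and 2033 CPM in S288c, against 149, 138, 155, 162 and 114 CPM in RM11. All S288c libraries lay far above all RM11 libraries, with a log2 fold change of 3.59 ± 0.12 (SE; adjusted p = 1.67e-11, edgeR). Untreated, the log2 fold change was 0.88, which was not called, and the interaction was 2.70 ± 0.13.

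In the aromatic pathway the 2 isoenzymes of the entry step, ARO3 and ARO4, were both higher. ARO3 read 923, 1002, 1013, 1220.2 and 1301 CPM in S288c, against 300.3, 212, 287, 242 and 231 CPM in RM11. ARO4 averaged 997 ± 222 CPM in S288c and 279.9 ± 62.9 CPM in RM11 (SD, n = 5 each). Their log2 fold changes were 2.10 ± 0.12 and 1.83 ± 0.17, and neither strain's libraries overlapped the other's. The tryptophan branch genes TRP4 and TRP3 followed with 1.61 and 1.55. ARO1, whose product holds the step that glyphosate blocks, averaged 1723 ± 205 CPM in S288c and 953 ± 199 CPM in RM11, and its log2 fold change of 0.86 ± 0.14 was under the 2-fold threshold, although its interaction of 1.05 was called. GCN4 itself averaged 293 ± 38.7 CPM in S288c and 131 ± 24.6 CPM in RM11, with a log2 fold change of 1.16 ± 0.13, against 0.06 untreated. Gcn4 is known to be controlled mainly at translation, which these libraries do not measure. ARO1 and GCN4 were added to the named genes for their roles, after values had been seen.

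HIS5, which carries out the aminotransferase step of histidine synthesis, read 1571, 1719, 1736, 1826 and 1859.96 CPM in S288c, against 486, 483, 486, 486 and 432 CPM in RM11. HIS3 and HIS4 were higher by 1.73 and 1.55 on the log2 scale. LEU4, the first enzyme of leucine synthesis, read 5193, 5849, 5756, 5873 and 6165 CPM in S288c, against 1759, 1736, 1809, 1728 and 932 CPM in RM11. In HIS4, TRP4 and LEU4 the fifth RM11 library was the lowest of all 10. LYS2 was higher by 1.51. Outside these pathways ASN1, an asparagine synthetase, was higher by 3.05 ± 0.11 and STR3, which makes homocysteine from cystathionine, by 3.10 ± 0.15. The list of sulfate and methionine genes held 8 higher and 2 lower of 23 (median 0.75, untreated -0.26), and that of serine, threonine, glutamate and asparagine genes 7 higher and 1 lower of 17 (median 0.61). Among all genes 13.3% were higher and 12.8% lower, so that the lower counts of both lists were under the share of all genes. The lower genes included SAM2, an S-adenosylmethionine synthetase, at -4.26, and GDH1, the glutamate dehydrogenase that assimilates ammonium, at -1.71.

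Some of the largest differences were in amino acid permeases. BAP2, a transporter of branched-chain amino acids (YBR068C, chrII:373861-375690), read 176, 271, 287, 278 and 175 CPM in S288c, against 5.26, 4.05, 4.63, 6.22 and 3.65 CPM in RM11. Without Cr41 BAP2 averaged 7.24 CPM in S288c and 6.89 CPM in RM11. Its log2 fold change was 5.65 ± 0.21 with Cr41 and 0.07 untreated, and the interaction was 5.57 ± 0.28 (adjusted p = 6.24e-13, edgeR).

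DIP5, which takes up glutamate and aspartate, GNP1, a glutamine permease, and AGP1, a permease of broad range, were higher by 5.56 ± 0.14, 5.29 ± 0.22 and 4.64 ± 0.22. AGP1 read 1136, 1781, 2014, 2037 and 1463 CPM in S288c, against 75.95, 75.8, 72.1, 76.3 and 37.7 CPM in RM11, and the fifth RM11 library was the lowest. Of 19 permease genes tested, 8 were higher and 2 lower with Cr41 (median 0.76), beside 13.3% and 12.8% of all genes. The lower count was under the share of all genes. Untreated, 4 of 20 were higher and 4 lower (median -0.15), beside 6.72% and 8.38% of all genes. The interaction was upward in 11 of 20 and downward in 2, beside 11% and 8.21% of all genes.

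**Figure D2:**
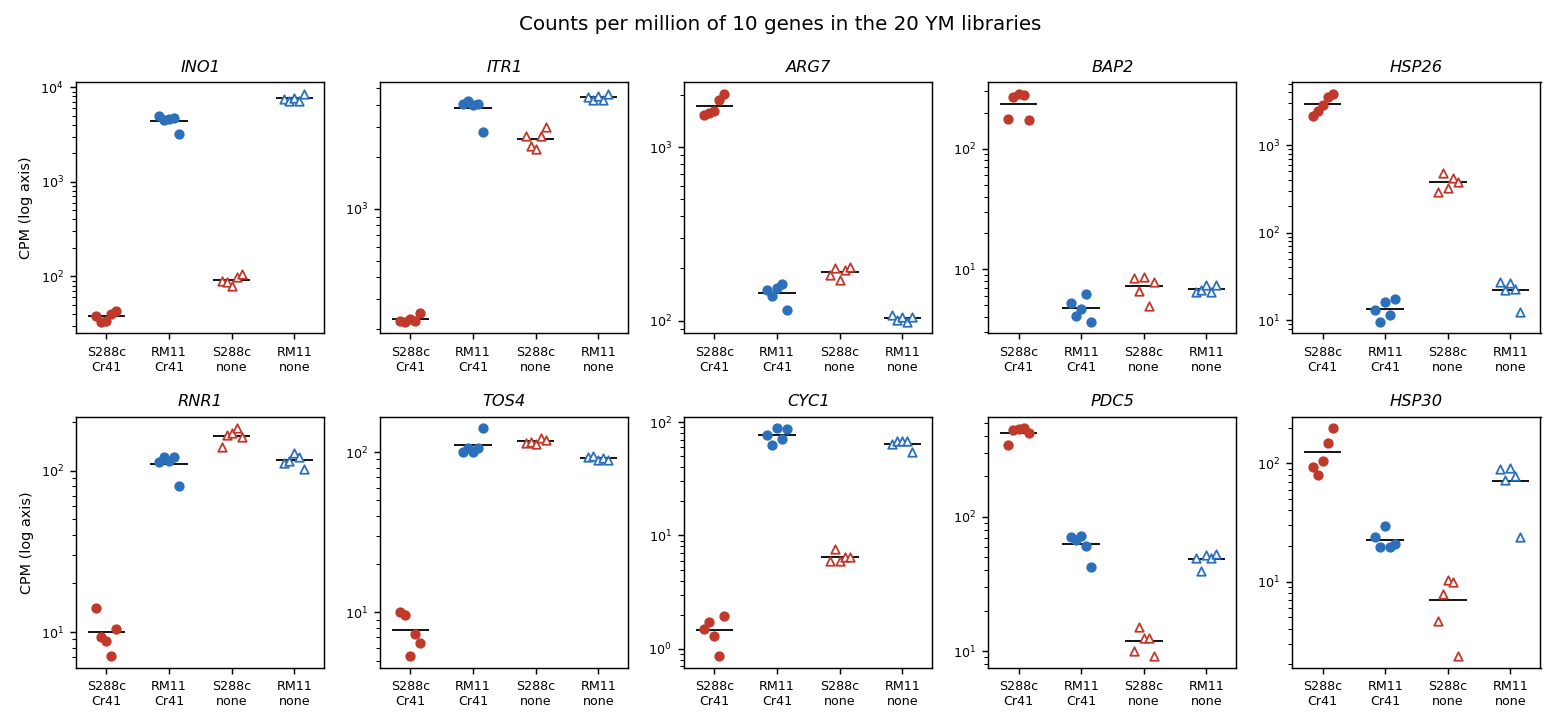
CPM of 10 genes on log axes, with 1 point per library for S288c and then RM11, with Cr41 and untreated in YM, and a black line at each mean. INO1, CYC1 and HSP26 differed between the strains in both states, BAP2, RNR1 and TOS4 only with Cr41 at the threshold used, and HSP30 and PDC5 lay higher in S288c with Cr41 and lower in S288c untreated.

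**Figure D3:**
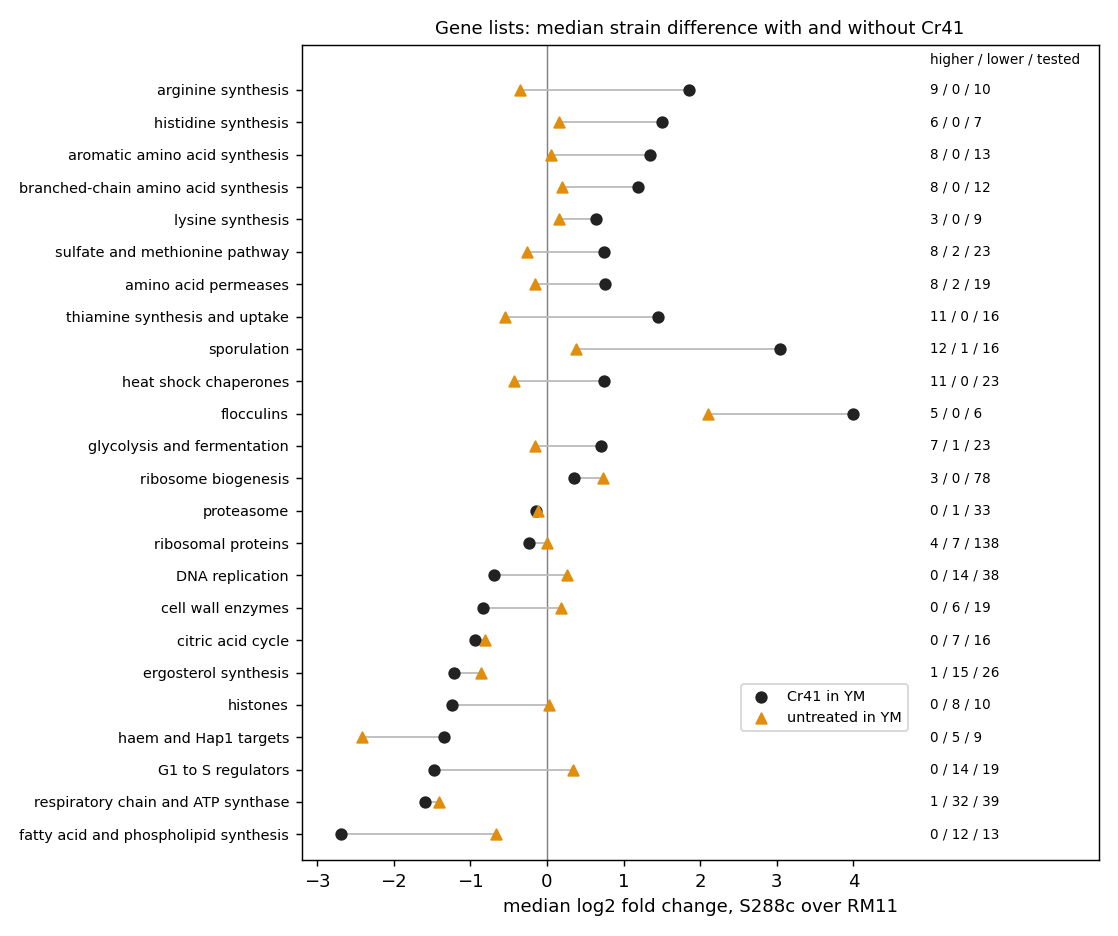
Median log2 fold change (S288c over RM11, x axis) of the genes of 24 lists, with Cr41 (circles) and untreated (triangles) in YM, and at the right the counts called higher, called lower and tested with Cr41. Amino acid lists lie to the right with Cr41 and near 0 untreated, G1 to S and histone lists lie to the left with Cr41 and near 0 untreated, and respiratory genes lie to the left in both.

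Phospholipid and fatty acid genes were lower in S288c. Of the 13 genes of this list 12 were called lower and none higher with Cr41, beside 12.8% of all genes, with a median log2 fold change of -2.68. Untreated, 4 were called lower, with a median of -0.66, beside 8.38% of all genes. The interaction was downward in 10 of 13, beside 8.21% of all genes. In WYF with Cr41, 5 were called lower, with a median of -0.91.

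The core CATGTG, read by Ino2 and Ino4, was found on either strand in the 500 bases before the start codon of 9 of these 13 genes, beside 13.0% of all promoters. It was in 16.4% of the promoters of lower genes and 13.4% of those of higher genes. This motif was added after the values of these genes had been seen. FAS1, described below, held no match. The stretches are shown, core in capitals, for genes of the inositol and choline routes, with the inositol transporter gene ITR1, which is not in the list, and for FAS2. CACATG is the same core on the other strand.
INO1, chrX:136159-136188, - strand: ggctaaatgcggCATGTGaaaagtattgtc
INO1, chrX:136094-136123, - strand: acttatttaattCACATGgagcagagaaag
ITR1, chrIV:1445671-1445700, - strand: ccttccccaccgCATGTGaaaaaagctcga
CHO1, chrV:208616-208645, - strand: cctttgagctttCACATGgacccatctaaa
CHO2, chrVII:802161-802190, + strand: ttattcccttctCATGTGaagagttcacac
OPI3, chrX:573130-573159, - strand: tcaatgagagtgCATGTGgaaagttgcacc
FAS2, chrXVI:108408-108437, + strand: ctcccgcgttttCACATGctacctcattcg

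INO1 (YJL153C), the inositol-3-phosphate synthase that makes inositol, had the lowest log2 fold change of all genes called. It read 38.5, 33.2, 33.6, 40.2 and 42.7 CPM in S288c, against 4941, 4466, 4673, 4778 and 3237 CPM in RM11. No S288c library came near the lowest RM11 library, and the log2 fold change was -6.87 ± 0.15 (adjusted p = 6.38e-13, edgeR). INO1 was also lower in S288c without Cr41, with 91.7 CPM in S288c and 7617 CPM in RM11 and a log2 fold change of -6.38, and its interaction of -0.50 was not called. As a share of all counts INO1 took 0.00330% in S288c and 0.463% in RM11.

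Other genes of the route were also lower in S288c with Cr41. ITR1, the main inositol transporter, read 223, 221, 227, 224 and 246 CPM in S288c, against 4061, 4216, 3991, 4087 and 2807 CPM in RM11. Its log2 fold change was -4.07 ± 0.13 with Cr41 and -0.80 untreated, and the interaction was -3.27 ± 0.14. CHO2, the first methylation step from phosphatidylethanolamine to phosphatidylcholine, read 44.04, 46.4, 44.4, 57.2 and 54.2 CPM in S288c, against 609.7, 577, 588, 568 and 378 CPM in RM11. CHO1, phosphatidylserine synthase, and OPI3, the later methylation steps, had log2 fold changes of -3.35 ± 0.15 and -2.87 ± 0.22. Untreated, the log2 fold changes of CHO2, CHO1 and OPI3 were -1.04, -1.11 and -1.68. The fifth RM11 library was the lowest of the RM11 group in ITR1 and CHO2, and in both it still lay above all 5 S288c libraries.

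FAS2, a subunit of fatty acid synthase, averaged 313 ± 16.8 CPM in S288c and 2837 ± 409.8 CPM in RM11 (SD, n = 5 each). FAS1, the other subunit, averaged 504 ± 60.4 CPM in S288c and 3242 ± 599.7 CPM in RM11. Their log2 fold changes were -3.17 ± 0.12 and -2.68 ± 0.14. The regulators were lower too. INO2 averaged 51.9 ± 18.2 CPM in S288c and 169 ± 15.1 CPM in RM11. INO4 averaged 20.3 ± 4.46 CPM in S288c and 48.2 ± 10.8 CPM in RM11. OPI1 averaged 43.8 ± 2.72 CPM in S288c and 152 ± 18.8 CPM in RM11. The 3 had log2 fold changes of -1.69, -1.24 and -1.78. For INO4 and OPI1 the interaction was called, at -1.60 and -1.31, and for INO2 it was -0.997 and not called. OPI3, FAS1, INO2, INO4 and OPI1 were picked after values were seen.

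Genes of the G1 to S transition were lower in S288c. With Cr41, 14 of 19 were called lower and none higher, with a median log2 fold change of -1.48, whereas untreated none was called either way at a median of 0.34. The interaction was downward in 15 of 19. Of 38 DNA replication genes 14 were lower and none higher (median -0.69, untreated 0.26), with 19 downward interactions. Of 10 histone genes 8 were lower and none higher (median -1.23, untreated 0.02), with 8 downward interactions. Beside these counts, 12.8% of all genes were lower with Cr41 and 8.21% had a downward interaction. The libraries are bulk RNA, so that fewer cells at a stage of the cell cycle and less RNA per cell cannot be told apart.

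The MCB element ACGCGT, bound by MBF, was in the 500 bases before the start codon of 19 of the 38 replication genes and 6 of the 19 G1 to S genes, beside 5.63% of all promoters. It was in 12.3% of the promoters of lower genes and 3.74% of those of higher genes. The SCB element CGCGAAA, bound by SBF, was in 5 of the 19 G1 to S genes, beside 6.05% of all promoters, 11.6% of those of lower genes and 4.36% of those of higher genes. A match of either can overlap the other. Shown are 1 stretch each for 6 of the genes described next, with the element in capitals.
RNR1, chrV:298567-298596, + strand: aattctaagtaaACGCGTcattttgatcct
POL30, chrII:425944-425973, - strand: ccaaaacgcgaaACGCGTaacttttttttt
RFA1, chrI:158767-158796, - strand: tggaaaaatgtcACGCGTaaaaattagacg
POL1, chrXIV:429867-429896, + strand: acatctattcaaACGCGTtaaaattttttt
CDC21, chrXV:467730-467759, - strand: taatatttggtgACGCGTtaaatagaaaaa
PCL1, chrXIV:87583-87611, + strand: atcgcgtccggCGCGAAAtttttcgcgga

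Capitals mark 1 element in each stretch, an SCB element in PCL1 and an MCB element in the other 5. They do not mark every match: PCL1 had 2 SCB matches, which lie in this stretch, and lower-case letters beside the MCB element of POL30 complete an SCB match. RNR1 held 4 MCB matches in its window. TOS4 held no MCB match and CLN2 no SCB match in theirs.

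RNR1 (YER070W), the large subunit of ribonucleotide reductase, read 14.1, 9.29, 8.85, 7.06 and 10.5 CPM in S288c, against 113, 122, 115, 121 and 80.2 CPM in RM11. The highest S288c library lay under the lowest RM11 library, and the log2 fold change was -3.46 ± 0.17 (adjusted p = 1.10e-09, edgeR). Untreated, RNR1 averaged 165 ± 15.5 CPM in S288c and 116 ± 9.49 CPM in RM11 (SD, n = 5 each), a log2 fold change of 0.50, and the interaction was -3.97 ± 0.18. TOS4, a G1 to S target gene that codes for a chromatin-associated protein, read 9.99, 9.67, 5.31, 7.28 and 6.43 CPM in S288c, against 101, 106, 101, 105 and 141 CPM in RM11. Its interaction of -4.19 ± 0.16 was among the 5 most negative of all genes. In the fifth RM11 library RNR1 was the lowest of its group and TOS4 the highest.

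The G1 cyclin genes CLN2 and PCL1 had log2 fold changes of -3.66 and -3.07. POL30, the sliding clamp PCNA, averaged 1.44 ± 0.662 CPM in S288c and 19.1 ± 4.37 CPM in RM11, and RFA1, a subunit of the single-strand DNA binding protein RPA, 13.4 ± 2.03 CPM in S288c and 120.4 ± 15.03 CPM in RM11 (SD, n = 5 each). The replication initiator CDC45 and the polymerase subunit POL1 had log2 fold changes of -2.68 ± 0.21 and -2.59 ± 0.18. The checkpoint kinase gene RAD53, the SBF subunit gene SWI4, the G1 to S repressor gene NRM1 and the cyclin-dependent kinase gene CDC28 had -1.27 ± 0.33, -1.26 ± 0.13, -1.48 ± 0.13 and -0.68 ± 0.15, of which CDC28 alone was under the 2-fold threshold. HHO1, the linker histone, was at -3.32 ± 0.17.

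CDC21, thymidylate synthase, and RAD27, the flap nuclease that processes Okazaki fragments, were lower in S288c with Cr41 and higher untreated. CDC21 read 10.2, 6.82, 4.83, 5.14 and 2.36 CPM in S288c, against 25.9, 29.7, 23.3, 24.01 and 39.5 CPM in RM11 with Cr41. Untreated, it averaged 52.96 ± 3.78 CPM in S288c and 20.7 ± 1.85 CPM in RM11, and the log2 fold change was -2.26 ± 0.29 with Cr41 and 1.35 ± 0.08 untreated. For RAD27 these were -2.13 ± 0.19 and 1.10 ± 0.09. Both were picked for this pattern.

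HO, the mating-type switching endonuclease, is known to be made at the G1 to S step. It read 7.40, 6.63, 5.47, 4.07 and 3.64 CPM in S288c, against 0, 0, 0, 0.214 and 0 CPM in RM11 with Cr41. Untreated, it averaged 75.9 ± 6.57 CPM in S288c and 0 CPM in all 5 RM11 libraries. The lowest untreated S288c library stood at 67.5 CPM, and RM11 gave at most 1 count in either state. In the opposite direction, CDC20, the activator of the anaphase-promoting complex, was higher in S288c at 3.27 ± 0.09. Of the 19 G2 to M genes 1 was higher and 4 lower with Cr41 (median -0.40), beside 12.8% of all genes lower. Untreated, none of the 19 was called either way, at a median of -0.36. The interaction was upward in 1 and downward in 3, beside 11% and 8.21% of all genes. In WYF with Cr41, 10 of the 19 were lower (median -1.04).

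Cell wall genes differed in both directions. Of 19 cell wall enzyme genes 6 were lower and none higher (median -0.84, untreated 0.18), beside 12.8% of all genes lower. The interaction was downward in 8, beside 8.21% of all genes. SCW10, a glucanase-like wall protein, read 55.7, 56.5, 49.1, 46.03 and 49.96 CPM in S288c, against 508, 456, 495, 510.02 and 322 CPM in RM11. ECM33, a GPI-anchored wall protein, was at -1.93 ± 0.16. Of 15 cell wall protein genes tested 5 were higher and 3 lower (median 0.71, untreated -0.42). This stands beside 13.3% of all genes higher and 12.8% lower. HSP150, an O-mannosylated wall protein of the Pir family, read 25480.1, 27172, 28383, 28981 and 31135 CPM in S288c, against 1209, 1254, 1258, 1159.8 and 694 CPM in RM11, a log2 fold change of 4.67 ± 0.19 with Cr41 and 3.86 untreated.

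SED1, a major GPI-anchored wall protein, took a large share of all reads in both strains. It held 8.81, 8.91, 8.88, 9.18 and 9.43% of counts in S288c, against 7.94, 8.81, 8.26, 8.06 and 4.82% in RM11. The highest RM11 library and the lowest S288c library both stood at 8.81%, so that the groups just overlapped. The difference was 1.46 percentage points (exact two-sided permutation test, p = 0.0159, adjusted over 8 shares 0.0181), and 0.773 points without RM11 replicate 5. The study reports a deletion in the RM11 allele of SED1, and RM11 reads were counted on the S288c sequence. Lower expression and reads that found no match therefore cannot be told apart in this difference. Untreated, the mean shares were 3.82% in S288c and 5.35% in RM11. In the gene-wise test the log2 fold change of SED1 with Cr41 was 0.50 ± 0.21 (edgeR adjusted p = 0.0423), under the 2-fold threshold.

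The flocculins, wall adhesins encoded by the FLO genes, were higher in 5 of 6 and lower in none (median 3.996, untreated 2.10, 4 higher). Beside these, 13.3% of all genes were higher with Cr41 and 6.72% untreated. FLO11 read 239, 220.2, 169, 39.8 and 128 CPM in S288c, against 5.65, 7.60, 5.90, 5.57 and 7.97 CPM in RM11, which is 4.62 ± 0.43 on the log2 scale, and in S288c replicate 4 was the lowest. FLO10 averaged 30.3 ± 8.74 CPM in S288c and had no count in RM11 with Cr41, at least 308-fold higher against a floor of 3 counts over the 5 RM11 libraries. FLO genes hold internal repeats and several have near-identical copies, and 2 were called higher once transcripts with such copies were left out.

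Respiratory genes were lower in S288c with or without Cr41. Of 39 genes of the respiratory chain and ATP synthase 32 were lower and 1 higher with Cr41 (median -1.59), and 27 were lower and 1 higher untreated (median -1.40), while the interaction was called in 3, all downward. In WYF with Cr41 15 were lower and 1 higher (median -0.90). COX7, a subunit of cytochrome c oxidase, averaged 26.9 ± 8.68 CPM in S288c and 320.1 ± 108 CPM in RM11, and ATP14, a subunit of ATP synthase, 14.1 ± 2.28 CPM in S288c and 169.6 ± 16.9 CPM in RM11 (SD, n = 5 each). Of 16 citric acid cycle genes 7 were lower (median -0.94, untreated -0.80, 4 lower). Among all genes 12.8% were lower with Cr41 and 8.38% untreated, with downward interactions in 8.21%.

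The targets of Hap1, a haem-responsive activator, followed the same order. S288c is known to carry a Ty1 insertion at the end of the HAP1 coding sequence that weakens the protein. Of 9 genes of the haem and Hap1 list, none was higher and 5 were lower with Cr41 (median -1.35), and the same counts held untreated (median -2.42). This stands beside 12.8% of all genes lower with Cr41 and 8.38% untreated. CYC1, the main cytochrome c, read 1.48, 1.71, 1.29, 0.856 and 1.93 CPM in S288c, against 76.6, 62.3, 87.9, 70.7 and 86.7 CPM in RM11. The log2 fold change was -5.70 ± 0.18 with Cr41 and -3.31 ± 0.10 untreated. YHB1, a flavohaemoglobin that breaks down nitric oxide, and CYT1, cytochrome c1, were at -5.68 ± 0.18 and -2.75 ± 0.09.

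HAP1 itself (YLR256W) read 277, 253, 275, 287 and 268 CPM in S288c, against 152, 151, 142, 147 and 90.7 CPM in RM11. Its log2 fold change of 0.997 ± 0.12 lay just under the 2-fold threshold with all libraries. Ergosterol synthesis, which Hap1 also serves, had 15 of 26 genes lower and 1 higher (median -1.21), against 11 lower and 1 higher untreated (median -0.85). The shares of all genes lower were 12.8% with Cr41 and 8.38% untreated. HMG1, the HMG-CoA reductase, averaged 56.8 ± 4.58 CPM in S288c and 299 ± 56.9 CPM in RM11 and was at -2.39 ± 0.13. HMX1, the haem oxygenase, read 37.9, 25.02, 28.3, 20.1 and 19.9 CPM in S288c, against 599.7, 637, 573, 616 and 934 CPM in RM11, and the fifth RM11 library was the highest.

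Further large falls were in genes outside these groups. NRS1, a regulator of cell cycle entry under poor nitrogen, averaged 5.28 ± 1.30 CPM in S288c and 143 ± 17.4 CPM in RM11 (SD, n = 5 each). SCM4, a protein of the mitochondrial outer membrane, was at -4.44 ± 0.12, BIO2, biotin synthase, at -4.44 ± 0.14, and ISF1, whose role is not well known, at -4.35 ± 0.33. Untreated, these 4 had log2 fold changes of -2.11, -3.36, -1.80 and -5.14.

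HSP26, a small heat shock protein, had the largest rise among genes with no near-identical copy and a mean of at least 20 counts in the lower strain. It read 2146, 2475, 2864, 3499 and 3859 CPM in S288c, against 13.01, 9.62, 15.96, 11.6 and 17.3 CPM in RM11. The groups were far apart, with a log2 fold change of 7.77 ± 0.22 (adjusted p = 5.07e-12, edgeR). Untreated it was 4.09 ± 0.18, and the interaction was 3.68 ± 0.29. Of 23 heat shock chaperone genes 11 were higher and none lower with Cr41 (median 0.75), against 1 higher and 7 lower untreated (median -0.43), with 15 upward interactions. Among all genes 13.3% were higher with Cr41, 8.38% were lower untreated and 11% had an upward interaction. In WYF with Cr41 15 were higher (median 1.33). Among the 33 proteasome genes only PRE1 was called, as lower, at -1.54 (list median -0.15), beside 26.1% of all genes called.

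HSP30, a stress protein of the plasma membrane, was one of 24 genes called in opposite directions in the 2 states, 21 of them higher with Cr41 and lower untreated. It read 92.3, 79.99, 105, 149 and 197 CPM in S288c, against 23.7, 19.8, 29.4, 19.7 and 20.8 CPM in RM11 with Cr41. Untreated, it read 4.63, 7.81, 10.3, 9.87 and 2.34 CPM in S288c, against 90.4, 71.9, 90.7, 78.9 and 24.1 CPM in RM11. The fifth untreated RM11 library was thus well below the rest of its group, though above every untreated S288c library. The log2 fold change was thus 2.45 ± 0.22 with Cr41 and -3.35 ± 0.37 untreated. BTN2, a sorting factor for misfolded proteins, had 1.84 and -3.06, but untreated it read 22.7, 24.4, 27.4, 26.2 and 18.3 CPM in S288c, against 264, 271, 208, 219.6 and 25.6 CPM in RM11, so that the untreated RM11 replicate 5 lay within the S288c range. ATG41, an autophagy gene, went the same way as HSP30 with 3.24 and -1.0005, SPO21, a spindle pole protein of meiosis, with 2.83 and -1.69, and FMP23, a mitochondrial protein of unknown role, with 3.33 and -1.4996. BTN2, SPO21 and FMP23 were named after their values were seen.

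Thiamine genes were higher in S288c with Cr41. Of 16 thiamine genes tested 11 were higher and none lower with Cr41 (median 1.45), against 1 higher and 5 lower untreated (median -0.55), and the interaction was upward in 12. Of all genes, 13.3% were higher and 12.8% lower with Cr41, and 6.72% and 8.38% untreated. An upward interaction was called in 11% of all genes. PDC5, a pyruvate decarboxylase gene that thiamine represses, read 345, 445, 451, 454 and 420.2 CPM in S288c, against 70.8, 67.4, 72.1, 60.7 and 42.5 CPM in RM11 with Cr41. Untreated, it averaged 11.9 ± 2.33 CPM in S288c and 48.7 ± 5.22 CPM in RM11 (SD, n = 5 each). The log2 fold change was 2.76 ± 0.14 with Cr41, -2.03 ± 0.13 untreated and 7.80 ± 0.07 with Cr41 in WYF. THI4, which makes the thiazole part of thiamine, was at 4.78 ± 0.24. SNZ1, of vitamin B6 synthesis, was at 2.44 ± 0.10 with Cr41 and -1.39 untreated, in a list with 3 genes higher and 2 lower of 6 with Cr41, and 2 higher and 4 lower untreated.

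Genes known from sporulation were higher in S288c in 12 of 16 tested and lower in 1 (median 3.04), against 3 higher and 1 lower of 12 untreated (median 0.38). The shares of all genes higher were 13.3% with Cr41 and 6.72% untreated. With a minimum of 10 counts in each library, 5 of this list were called higher. YSW1, a protein of the forming spore membrane, read 333, 408, 429.6, 466 and 422 CPM in S288c, against 10.5, 11.3, 13.2, 12.6 and 16.8 CPM in RM11. GAS2, a glucan-remodelling enzyme of the spore wall, was at 4.97 ± 0.13. RRT5, a gene of unknown role that is expressed in sporulation, read 121, 109.7, 101, 103 and 121 CPM in S288c, against 0.131, 0.507, 0.638, 0.643 and 0.166 CPM in RM11, which is 12 counts in all for RM11, and its fitted interaction of 7.58 ± 0.77 was among the 5 largest. The other 4 of those were YIL025C, YOR203W, YDR545C-A and YER190C-A, none of which had more than 2 counts over the 5 treated RM11 libraries. YIL025C held 6.64 to 8.69 CPM in the S288c libraries and YOR203W 3.43 to 7.92. YDR545C-A and YER190C-A were uneven in S288c, with 0 and 0.428 CPM in replicate 4. With so few RM11 counts the size and rank of these fitted interactions depend on the prior count.

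FET4, a low-affinity iron transporter, averaged 414 ± 49.9 CPM in S288c and 6.87 ± 1.89 CPM in RM11 and was at 5.92 ± 0.16 with Cr41 and 3.23 untreated. QDR2, a multidrug transporter, read 101, 105, 103, 121 and 123 CPM in S288c, against 1.71, 1.86, 1.44, 1.29 and 0.831 CPM in RM11, and was at 6.24 ± 0.15 with Cr41 and 5.71 untreated. YDR340W, which was not matched to the annotation used here, was at 4.21 ± 0.14. PDR5, the main drug efflux pump, averaged 386 ± 34.9 CPM in S288c and 509 ± 102 CPM in RM11, a log2 fold change of -0.40 ± 0.13 that was under the threshold.

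Many of the highest fold changes belonged to sequences that S288c holds and RM11 reads barely matched. Ty ORFs, the coding sequences of retrotransposons, held 8.70, 9.06, 9.57, 8.89 and 8.66% of counts in S288c, against 0.325, 0.344, 0.342, 0.335 and 0.462% in RM11. The strains did not overlap (exact two-sided permutation test, p = 0.00794, the smallest that 5 against 5 can give, adjusted over 8 shares 0.0106). Untreated, Ty ORFs held 7.56% in S288c and 0.475% in RM11. Of 59 Ty ORFs tested 49 were higher in S288c and 4 lower, with a median log2 fold change of 10.30, or 9.37 with the 21 that had no count in RM11 set at the floor. The 5 largest fitted rises were Ty sequences, such as YGR027W-B, with 3668 to 4458 CPM in S288c and 0 in all 5 RM11 libraries, at least 42039-fold. Ty copies are near-identical, so that counts of a single copy are uncertain.

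The 4 genes of the 2-micron plasmid, which many yeast strains carry in high copy, were all higher in S288c. R0040C read 546, 640.1, 692, 652 and 587 CPM in S288c, against 0.131, 0, 0, 0.214 and 0.166 CPM in RM11. Of the chromosomal loci, ENA2, a sodium pump gene present in S288c as one of a tandem array, read 413, 386, 316, 364 and 376 CPM in S288c and had no count in any RM11 library with Cr41, at least 3770.2-fold higher in S288c. ENA2 has near-identical neighbours. VTH1, a sorting receptor gene near a chromosome end, averaged 76.4 ± 12.97 CPM in S288c and had no count in RM11, at least 776-fold. ASP3-1, a nitrogen-regulated asparaginase gene that not all strains carry, read 254, 219, 212, 284 and 339 CPM in S288c, against 0, 0, 0.319, 0 and 0.166 CPM in RM11, which is 3 counts in all for RM11.

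In all, 35 transcripts with a mean of at least 20 counts in treated S288c had at most 3 counts over all 20 RM11 libraries: 11 Ty ORFs, 2 mitochondrial and 22 other nuclear genes. Of the 750 genes higher in S288c with Cr41 21 were among these, 49 were Ty ORFs and 106 had a near-identical copy, and of the 727 lower genes 4 were Ty ORFs and 24 had a copy. Among all 5660 genes tested 59 were Ty ORFs, and 5436 genes were tested once Ty ORFs and copies were left out. The Ty ORF YBL100W-A, with 0 to 1.48 CPM in S288c and 22.2 to 34.4 CPM in RM11, was the other extreme, and YLL067C, a helicase-like gene near a chromosome end, was at -4.93 ± 0.52. Both have near-identical copies. Beside HO and TOS4, the most negative interactions were those of YPR204W, FEX2 and MST28, all with near-identical copies and no count in untreated RM11. With Cr41 these 3 averaged 165 CPM in S288c and 1.76 CPM in RM11, 12.6 CPM in S288c and 1.15 CPM in RM11, and 19.4 CPM in S288c and 0.537 CPM in RM11.

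**Figure D4:**
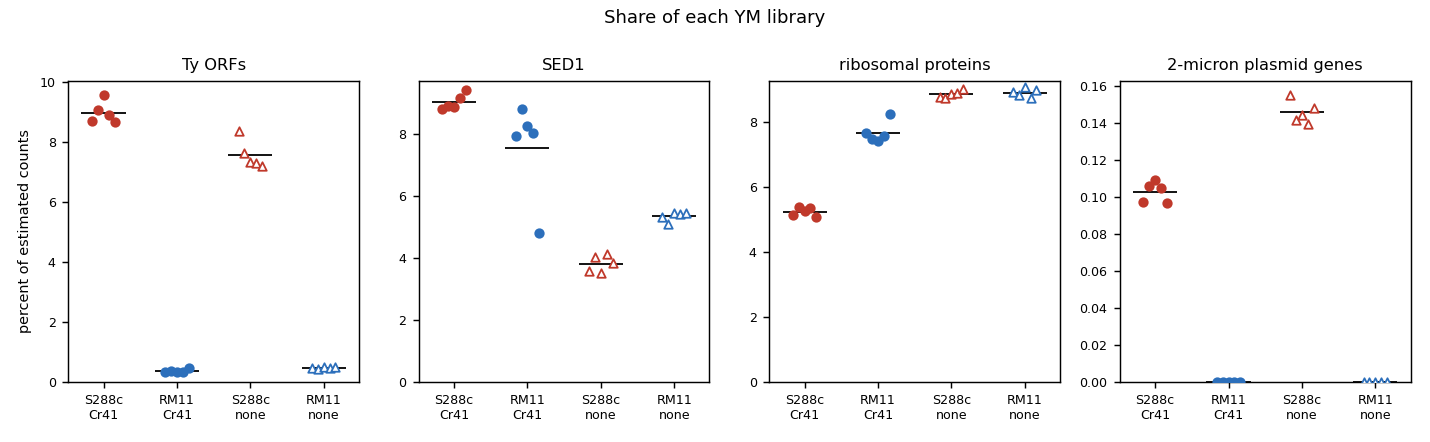
Percent of each library's counts held by sets of genes, 1 point per library, for S288c and then RM11, with Cr41 and untreated in YM, with black lines at the means. Ty ORFs held 8.98% in S288c and 0.362% in RM11 with Cr41, SED1 9.04% in S288c and 7.58% in RM11, and ribosomal proteins 5.24% in S288c and 7.66% in RM11.

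Ribosomal protein genes held 5.24 ± 0.137% of counts in S288c and 7.66 ± 0.327% in RM11 with Cr41, and 8.84% in S288c and 8.89% in RM11 untreated (SD, n = 5 each; exact two-sided permutation test with Cr41, p = 0.00794). As shares of TPM they were 15.5% in S288c and 19.9% in RM11 with Cr41, and 26.5% in S288c and 22.7% in RM11 untreated, where the strains stood in the opposite order. Gene by gene, 4 of 138 were higher and 7 lower (median -0.23), and 11 were lower without RM11 replicate 5. The 4 and the 7 were both under the shares of all genes, 13.3% higher and 12.8% lower. Many are pairs of near-identical copies. Ribosome biogenesis genes, which make and assemble ribosomes, held 1.37% in S288c and 1.32% in RM11 (exact two-sided permutation test, p = 0.762). Of these, 3 of 78 were higher with Cr41 (median 0.35), beside 13.3% of all genes. Untreated, 14 of 78 were higher (median 0.73), beside 6.72% of all genes.

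With Cr41 in WYF, where the aromatic amino acids are supplied, 907 of 5588 genes differed between the strains (16.2%), and 514 of 5722 (8.98%) differed in the strain difference between YM and WYF. Each medium was sequenced in its own lane, so that medium and lane cannot be told apart. Of the genes called in YM, 355 of the 750 higher and 335 of the 727 lower were called the same way in WYF. The median of the aromatic list was 0.27 in WYF with Cr41, with 1 of 13 genes higher, and those of the arginine and histidine lists were 0.45 and 0.35. The difference between media was upward in YM for 5 of 13 aromatic, 7 of 10 arginine and 4 of 7 histidine genes. In the G1 to S list 12 of 19 genes were lower in WYF (median -1.23), and in the histone list 10 of 10 (median -1.63).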

How the data were processed

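RNA was extracted with hot phenol and sequenced as 76-base read pairs. The authors quantified every library of both strains with Salmon v0.13.1 on S288c transcripts. Each deposited file gives an estimated count that is not normalized, a TPM value, a length and an effective length for 6661 transcripts. The TPM values, scaled by effective length, are those the authors deposited. The study used DESeq2 for its own comparisons, which were not used here. The Salmon library type is not given in the sources used here, so whether reads were assigned by strand is unknown and 208 overlapping ORFs are uncertain. Counts were rounded, since 488 to 646 values per library were not whole.

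Systematic names placed 5993 transcripts in the RefSeq annotation of R64, the source of sequences and coordinates, and 668 found no match. The main test was the quasi-likelihood F test of edgeR 4.0.16 in R 4.3.3, with filterByExpr, TMM scaling and Benjamini-Hochberg adjustment over the genes tested. It was fitted on the 10 libraries of a comparison, or on 20 for an interaction. Calls needed both an adjusted p below 0.05 and a change of 1 or more on the log2 scale. Summed shares were compared with an exact permutation test. The scripts were tested on simulated data. blastn 2.17.0 marked 305 transcripts that share 95% of 100 or more bases with another as near-identical copies.

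Genes were named by a rule. It takes the 10 largest changes each way that are called, show no overlap between the strains in CPM, are neither Ty ORFs nor copies and average at least 20 counts in the lower strain over its YM libraries, the 5 largest each way without these limits, the 5 largest interactions each way, up to 4 from each list, and genes the study names. Genes outside it are said to be chosen after their values were seen. The members and lists were chosen with earlier results of these data known. The labels do not say that replicates came from separate cultures, so p-values measure only the spread between these samples. The alternatives were DESeq2 1.42.0, limma 3.58.1 on log2(TPM + 1), RLE and upper quartile scaling, other count filters and thresholds, thinned counts, all 40 libraries in a single fit, the replicate block, removal of Ty ORFs and copies, and each replicate left out. For an interaction, only the treated YM replicates were left out.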

Additional observations from a re-analysis of the deposited data

Results flagged for a closer look

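For each gene followed in the text and each summed share, the 5 libraries of a strain with Cr41 were searched for 1 that stood apart from the other 4. The test was whether its gap to the nearest of them was more than 0.71 of the whole range. Of 176 groups of 5 values 30 had such a library, where chance gives about 1 in 20, and in 28 of the 30 it was RM11 replicate 5. The 176 include groups at very low levels that were not searched, so fewer were looked at. What sets that library apart was not tested. The untreated libraries were not searched. Among them, RM11 replicate 5 also lay below the other 4 in HSP30, at 24.1 CPM (71.9 to 90.7), and in BTN2, at 25.6 CPM (208 to 271).

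RM11 replicate 5 lay below the other 4 RM11 libraries, whose range is given in brackets, in 16 genes. Among transport, lipid and wall genes these were AGP1 37.7 CPM (72.1 to 76.3), HSP150 694 CPM (1159.8 to 1258), INO1 3237 CPM (4466 to 4941), ITR1 2807 CPM (3991 to 4216), CHO2 378 CPM (568 to 609.7), FAS2 2122 CPM (2903 to 3107), SCW10 322 CPM (456 to 510.02), SED1 40371 CPM (77407 to 86882) and PDR5 332 CPM (523 to 587). Among the other genes they were HIS5 432 CPM (483 to 486), HIS4 1613 CPM (2619 to 2731), TRP4 80.6 CPM (133 to 145), LEU4 932 CPM (1728 to 1809), RNR1 80.2 CPM (113 to 122), HMG1 200.03 CPM (309.5 to 342) and HAP1 90.7 CPM (142 to 152). It lay above the others in HMX1 934 CPM (573 to 637), SCM4 1047 CPM (762 to 837), TOS4 141 CPM (101 to 106), CDC45 69.8 CPM (45.2 to 48.03), POL1 199 CPM (133 to 138), HHO1 122 CPM (89.2 to 93.8) and RAD27 110.3 CPM (57.9 to 67.9). No gene of these changed its call without this library.

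Among the shares, this library held 4.82% of counts on SED1 (others 7.94% to 8.81%) and 5.94% on cell wall protein genes (9.57% to 10.3%). It held 0.462% on Ty ORFs (0.325% to 0.344%), 8.22% on ribosomal protein genes (7.41% to 7.64%) and 1.74% on ribosome biogenesis genes (1.20% to 1.25%). In S288c, replicate 1 held 604 CPM of CDC20 against 670.2 to 687 in the others, and replicate 5 held 246 CPM of ITR1 against 221 to 227.

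The strain difference itself differed between states in 3 counts. It differed between Cr41 and untreated in 1112 genes and between YM and WYF with Cr41 in 514 genes, both by an interaction term in edgeR, and 24 genes were called in opposite directions with Cr41 and untreated.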

How the results depend on the processing

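The count of 1477 genes ranged from 1468 to 1563 when each replicate was left out in turn. With the replicate block it was 1476 (1457 shared), with DESeq2 1475 and with limma on log2(TPM + 1) 1426. The other 4 counts stayed within 837 to 897 (untreated), 1065 to 1173 (Cr41 against untreated), 915 to 933 (WYF) and 499 to 598 (YM against WYF) without single replicates, and were 850, 1100, 910 and 507 with the replicate block. In the Cr41 against untreated and YM against WYF counts, only treated YM libraries were left out. Those ranges do not cover loss of an untreated or a WYF library. Same-numbered libraries of the strains did not deviate together (correlations -0.227 to 0.0964). This cannot show whether same-numbered samples were grown or handled together. With no fold threshold, 3936 genes passed with Cr41 in YM, 4014 untreated, 3140 in the interaction, 4137 in WYF and 2262 between media. With limma 43.1% of the genes that differed between media were upward, against 55.3%.

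Leaving out single replicates, the share difference (S288c minus RM11, in percentage points) ranged from 8.47 to 8.69 for Ty ORFs, 0.773 to 1.77 for SED1, 0.101 to 0.104 for the 2-micron plasmid, 0.0478 to 0.0616 for mitochondrial ORFs, -2.49 to -2.28 for ribosomal proteins, 2.68 to 3.76 for cell wall proteins, -0.479 to -0.449 for INO1 and -0.0131 to 0.152 for ribosome biogenesis. The last turned to -0.0131 without S288c replicate 2. Of 1850 gene results under alternatives none reversed, none lost its call and 20 passed newly, mostly HAP1 at its threshold. The 1850 include settings that changed only a threshold on the main fit. Those could not reverse a result, and the looser ones could not lose a call. A gene that a setting did not test is not among these results. Genes taken out by a count filter or as copies are therefore not counted as lost. Of 1104 list counts 1060 stayed within 1.5 times, and the cause of the other 44, most of them with no fold threshold, was not tested. With limma 3 MATa-specific, 3 nitrogen catabolite, 3 phosphate, 4 glycolysis and 1 ribosome biogenesis gene were called higher and 12 ribosomal protein genes lower. With at least 10 counts in every library 5 sporulation, 7 Ty, 1 vitamin B6 and 0 plasmid genes were called higher. With all 40 libraries 8 cell wall protein and 8 phosphate genes were, and with any count 9 cell wall protein genes. Without copies 2 flocculin, 1 vitamin B6 and 2 ribosomal protein genes were, and 4 ribosomal protein genes were lower. For genes with no RM11 count a lower bound of the fold is given, and fitted values of genes with a few counts depend on the prior count.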

Other observations

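Genes of mating differed upward in S288c with Cr41. Values after a gene are log2 fold changes with their SE unless given in CPM. Of 7 MATa-specific genes 5 were called higher and none lower (median log2 fold change 1.08, untreated -0.05), led by MFA1, an a-factor gene, at 1.995 ± 0.15, and AGA2, an agglutinin subunit, at 1.34 ± 0.10. Of 16 pheromone pathway genes tested 7 were higher and none lower (median 0.61, untreated 0.01). FUS1, a cell fusion protein, averaged 49.2 ± 4.06 CPM in S288c and 8.16 ± 1.74 CPM in RM11 (SD, n = 5 each). Both MATalpha-specific genes tested were higher, STE3, the a-factor receptor, at 6.94 CPM in S288c and 1.003 CPM in RM11. Of 14 genes of daughter-cell separation 2 were higher, close to the 13.3% of all genes, with 2 also higher untreated (median 0.30 in both states).

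Metal and phosphate genes were called in both directions, beside 13.3% of all genes higher and 12.8% lower. In the iron list 6 of 26 were higher and 7 lower, with 13 upward interactions. In the copper list 3 of 10 were higher, such as the vacuolar copper transporter CTR2 at 3.94 ± 0.13, and 4 lower, such as the plasma membrane transporter CTR1 at -1.90 ± 0.20. In the zinc list 2 of 6 were higher and 1, the transporter ZRT1, lower at -2.29 ± 0.15. In the phosphate list 5 of 20 were higher and 1 lower, and the transporter PHO84 averaged 15.1 ± 4.28 CPM in S288c and 1.87 ± 0.647 CPM in RM11 (SD, n = 5 each), at 3.04 ± 0.29. The nitrogen catabolite list had 6 higher and 3 lower of 19, and the drug efflux list 9 higher and 1 lower of 24 (median 0.70, untreated -0.20). The single lower genes of the zinc, phosphate and drug efflux lists are near or under the share of all genes.

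Among genes of carbon use and storage, of 23 glycolysis and fermentation genes 7 were higher and 1 lower (median 0.71), the lower one being ADH2, the alcohol dehydrogenase that consumes ethanol, at -1.80 ± 0.53. In the hexose transporter list 1 of 9 was higher, HXT1 at 2.21 ± 0.15, and 2 lower. Of 15 trehalose and glycogen genes 5 were lower and none higher (median -0.61, untreated -0.94), and of 11 pentose phosphate genes 5 were lower and none higher (median -0.77, untreated -0.78). The general stress list had 2 higher and 4 lower of 13, the autophagy list 4 higher and none lower of 23, and the peroxisomal list 2 higher and 2 lower of 15. All list counts here stand beside 13.3% of all genes higher and 12.8% lower. The higher counts of the general stress, autophagy, peroxisomal and hexose transporter lists were close to that share, as was the lower count of the peroxisomal list. Of 16 loci tested at which commonly used strains carry different alleles, 7 were higher and 1, the maltose permease MAL31, lower at -2.42 ± 0.22. Of the 18 genes tested that the study names 2 were higher and 6 lower (median -0.32). Part of that list was chosen by the study on these libraries, so it is not independent evidence of a direction.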
